A study of Mus musculus with 4 samples.

Results

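*Olfr1417* to *Olfr1505* are olfactory receptor genes of mouse chromosome 19, and their levels in the nasal mucosa of young adult and aged mice are described here. The genes were chosen by name alone, as the non-control array probes whose accession maps to an Olfr symbol numbered from *Olfr1417* to *Olfr1505*. The rule found 57 genes on 58 probes, out of 45616 genes tested on the arrays, which included 1022 other Olfr genes. The RefSeq gene table lists 87 symbols in this number range, 60 of them protein coding and 27 of them pseudogenes. The 57 genes found were all protein coding, and no probe matched the pseudogenes or the coding genes *Olfr1437*, *Olfr1447* and *Olfr1458*.

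RNA was taken from the septal nasal mucosa of C57BL/6 mice (C57BL/6J in the sample labels), recorded as male, at 8 weeks (young adult) and at 16 months (aged), and no transgene or treatment is described for either age. Each age had 2 one-colour Agilent arrays, and RNA pooled from 5 mice was labelled with Cy3 for each array. The number of mice per age that the study's methods give for gene work is too small for both pools to be of different mice, and sharing is not described, so P values measure only the spread between these samples, which may be technical. A description of silica aspiration in lung that is attached to the same samples matches neither their titles nor the study's methods and was not used.

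Olfactory receptors are G protein-coupled receptors that bind odorants on the cilia of olfactory receptor neurons (ORNs). Each mature ORN transcribes a single receptor gene from a single allele, so in a whole mucosa the RNA of a receptor comes from the small share of neurons that chose it. Receptor genes lie in clusters along the chromosomes, neighbouring genes are often close relatives, and receptors are sorted by protein similarity into MOR families. In such bulk tissue, fewer ORNs that express a receptor and less receptor RNA per ORN cannot be told apart.

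The arrays carried 56605 probes each, and 63.1 to 76.8% of the probed spots were well above background. Young adult array 1 and aged array 1 shared a slide, and the other arrays each had a slide of their own. The 2 arrays of the shared slide had the brighter background and the fewer detected receptors: 27 and 24 of the 57 genes were well above background there, against 37 on young adult array 2 and 35 on aged array 2. The transcript of *Omp*, the defining marker of mature ORNs, was present at a mean level of 293400 in young adult and 325200 in aged mice (log2 difference 0.15, FDR = 0.549, limma). *Xist*, an RNA of the inactive X chromosome in females, was above background on all 4 arrays at 612 to 645, and 7 genes of the Y chromosome were above background on no array, at 10.8 to 31.8. These levels go against the recorded sex, and they were alike in both ages, with mean *Xist* levels of 629 and 641.

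In the aged mice, 6 of the 57 receptors were called higher and 1 lower (10.5 and 1.75%), against 1.65 and 2.33% of all genes tested. *Olfr1423*, *Olfr1425*, *Olfr1426*, *Olfr1480* and *Olfr1487* rose by 1.55 to 2.21-fold, *Olfr1449* fell by 2.19-fold with 1 of its aged arrays not above background, and *Olfr1462* was called higher at a signal below background. Calls needed a P below 0.05 in limma together with an FDR (Benjamini-Hochberg, all genes tested) below 0.25. The smallest FDR among the 57 receptors was 0.19, and no gene on the arrays passed an FDR of 0.05, while 5992 had an unadjusted P below 0.05. Without the correction, 14 of the receptors had P below 0.05 in the higher direction and 3 in the lower direction, together 29.8%. The share was also 29.8% among the 1022 other Olfr genes (209 higher and 96 lower), and 13.1% over all genes tested. No receptor, and no gene on the arrays, was called after leaving out any 1 of the 4 arrays, and 10 to 15 were higher and 1 to 5 lower at that unadjusted P. With the replicate number as a replicate block, again 0 receptors and 0 of all genes were called, with 13 receptors higher and 4 lower at the unadjusted P. Calls of higher receptors ranged from 3 to 12 over other background corrections, scalings, filters and variance models, under which 1410 to 7153 of all genes were called in either direction (1817 otherwise). The 12 came from the filter on dim probes, with 27 receptors and 29504 genes tested. An exact permutation test of 2 arrays against 2 cannot give a P below 0.333, so none was run on single receptors.

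The share of receptors called higher, 10.5%, lay close to that of the other Olfr genes, of which 112 (11%) were called higher. The share called lower was 1.75% here and 3.82% among the other Olfr genes. The median log2 difference of the 57 receptors was 0.18, against 0.10 over the other Olfr genes and 0.01 over all genes tested. The difference was above 0 for 40 of the 57 receptors (70.2%) and for 585 of the other Olfr genes (57.2%). In the plot of differences along the chromosome the values ran from -1.14 for *Olfr1451* to 1.15 for *Olfr1423*.

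**Figure D1:**
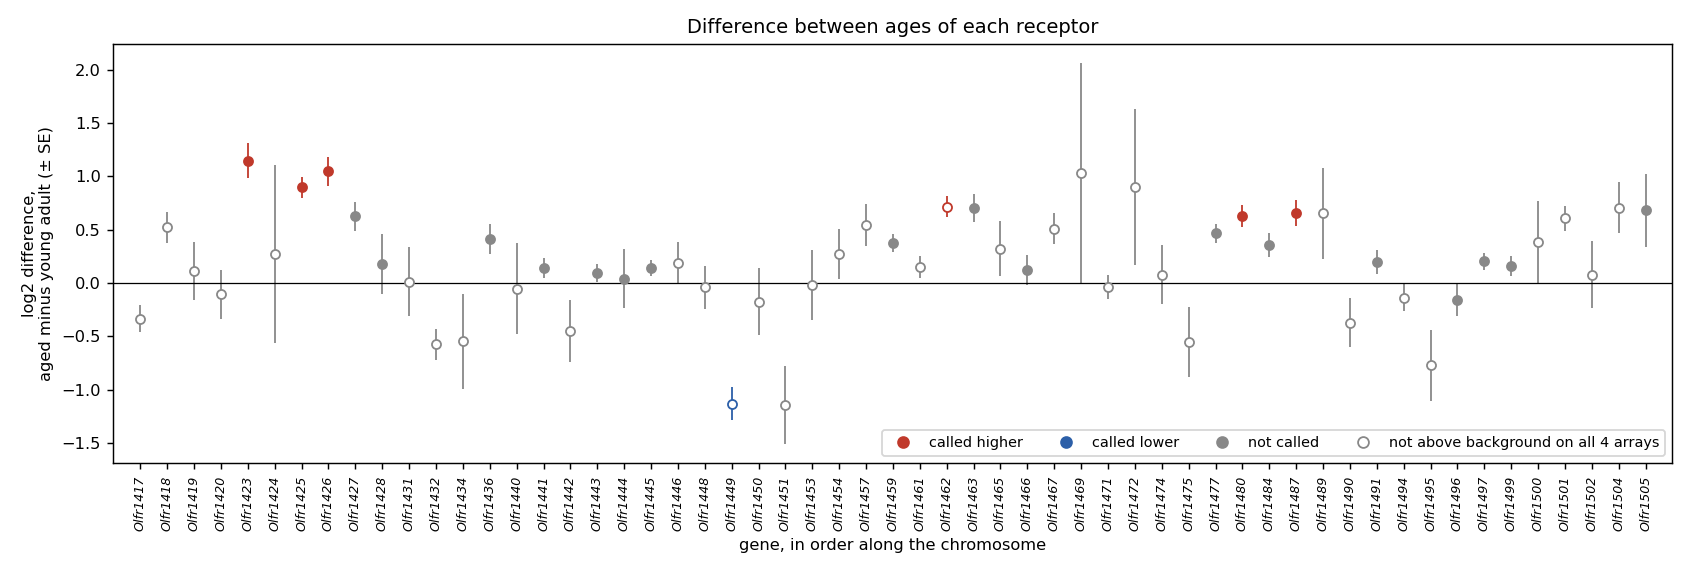
Log2 difference between aged and young adult mice (y axis, aged minus young adult, with its standard error from limma, 2 arrays per age) of each of the 57 receptors, in their order along chromosome 19 (x axis). Red points were called higher, the blue point was called lower, grey points were not called, and open points were not above background on all 4 arrays; the called rises were those of Olfr1423, Olfr1425, Olfr1426, Olfr1462, Olfr1480 and Olfr1487.

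Both aged arrays lay above both young adult arrays for 25 receptors and below them for 5, and the ages overlapped for the other 27. Among the other Olfr genes 34.8% lay above and 20.8% below, and over all genes tested the shares were 24.2% and 21.8%. The difference of each receptor is the mean of that within the shared slide and that between the remaining pair of arrays. Neither part is therefore a separate check of the whole. The median of the 57 receptors was 0.23 within the shared slide and 0.14 between the remaining arrays, which were on different slides. For the other Olfr genes these medians were 0.06 and 0.12.

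Many of the receptors gave dim signals. Of the 57 receptors, 22 were well above background on all 4 arrays, 18 on no array, and 17 on 1 to 3 arrays. In the last group, 7 receptors were detected only on young adult array 2 and aged array 2, the arrays with the lower background, and 5 on both young adult arrays but 1 aged array. Of the 22 detected on all arrays, 21 had a difference above 0, with *Olfr1496* as the exception at -0.16, and the median was 0.37. Of the 402 other Olfr genes detected on all arrays 248 (61.7%) were above 0, with a median of 0.16. The 18 receptors below background throughout were split evenly, 9 above and 9 below 0, with a median of -0.0047. No test was made between these classes. Detection on all 4 arrays can leave out receptors that fell in aged mice. The receptors detected on both young adult arrays but 1 aged array were *Olfr1449* (-1.13), *Olfr1495* (-0.77), *Olfr1494* (-0.14), *Olfr1448* (-0.04) and *Olfr1446* (0.19).

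**Figure D2:**
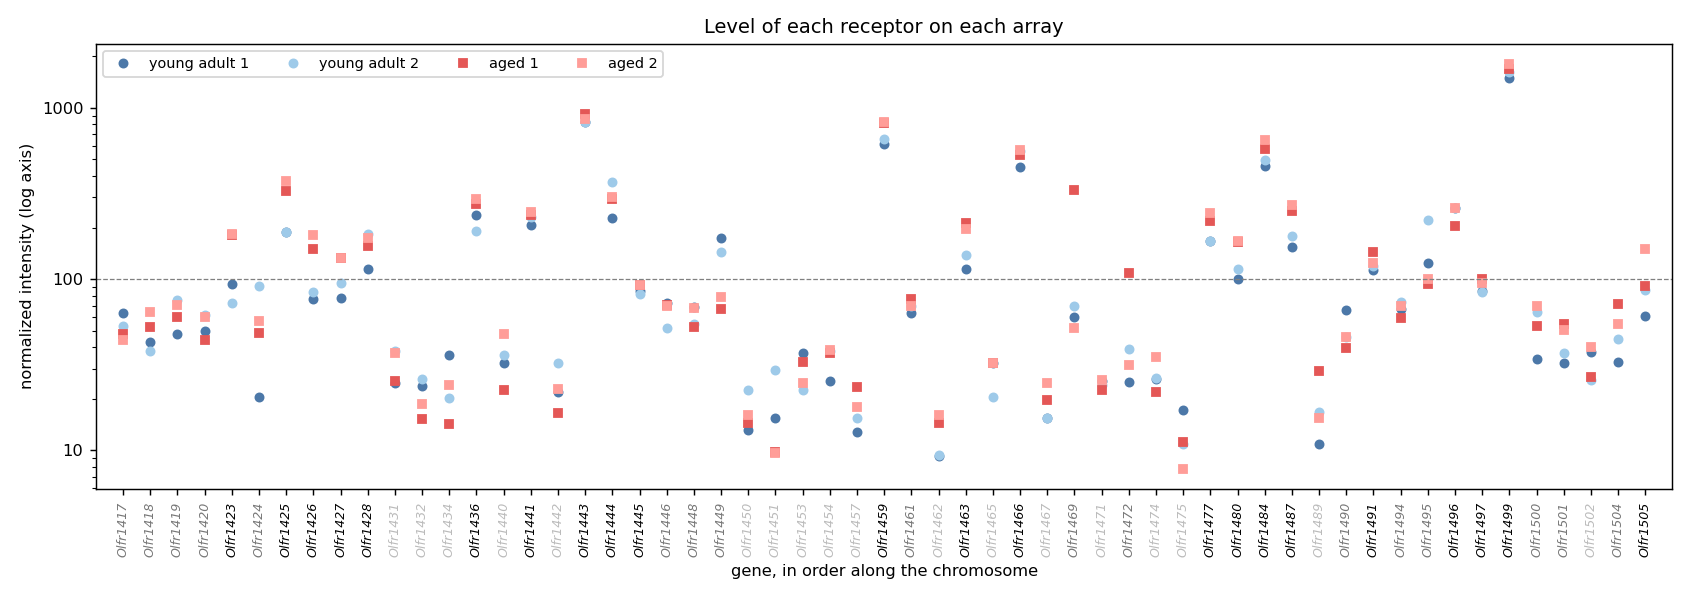
Normalized intensity (y axis, logarithmic) of each receptor on each of the 4 arrays, in their order along chromosome 19 (x axis). Circles are young adult and squares are aged arrays; black gene names mark the 22 receptors above background on all 4 arrays, dark grey names those above it on 1 to 3 arrays and pale names the 18 above it on none, and the dashed line marks a level of 100.

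The MOR239 family held 3 of the 6 called rises, and its members stand next to each other as *Olfr1423* to *Olfr1428*. In *Olfr1423* the normalized intensity was 93.7 and 72.4 in young adult mice, against 181 and 184 in aged mice. Both aged arrays were about alike and lay far above both young adult arrays, with a log2 difference of 1.15 (standard error 0.16, FDR = 0.208, limma). *Olfr1425* was measured at 188 and 187 in young adult mice and at 329 and 372 in aged mice, with young adult arrays that were nearly equal. Its difference of 0.90 (standard error 0.10, FDR = 0.19) had the smallest FDR of the 57 receptors. *Olfr1426* was measured at 76.4 and 83.7 in young adult mice and at 151 and 181 in aged mice. Its levels did not overlap between the ages either, and the log2 difference was 1.05 (standard error 0.13, FDR = 0.201).

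The window of 300 bases around the annotated start of *Olfr1423*, at chr19:12036691-12036990 on the minus strand of GRCm38.p6, is shown because this receptor had the largest rise. Capitals mark the start codon: the RefSeq gene model begins there, so that the first 250 bases lie upstream of the coding sequence and no transcription start is known from the table.
Olfr1423: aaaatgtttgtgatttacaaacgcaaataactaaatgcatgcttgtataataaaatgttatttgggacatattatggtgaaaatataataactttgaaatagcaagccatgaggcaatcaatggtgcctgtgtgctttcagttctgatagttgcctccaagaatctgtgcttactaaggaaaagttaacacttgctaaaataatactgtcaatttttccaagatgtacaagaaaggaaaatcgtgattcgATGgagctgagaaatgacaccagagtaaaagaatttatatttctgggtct

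The other MOR239 members were not called. *Olfr1427* was at 77.7 and 94.8 in young adult and at 132 on both aged arrays, without overlap (log2 difference 0.62, FDR = 0.269, limma). *Olfr1428* was at 115 and 184 in young adult and at 155 and 174 in aged mice, so that the ages overlapped, and its difference was 0.18. *Olfr1424* was at 20.6 and 91.7 in young adult mice and at 48.1 and 57.2 in aged mice. Its young adult arrays were far apart, and only young adult array 2 and aged array 2 were above background. Its log2 difference was 0.27 with a standard error of 0.84, while its mean level was lower in aged (52.6) than in young adult mice (56.1). The median log2 difference over the 6 members was 0.76. The single other MOR239 gene measured, *Olfr984*, had a difference of 0.71 without a call, and was not above background on all 4 arrays.

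**Figure D3:**
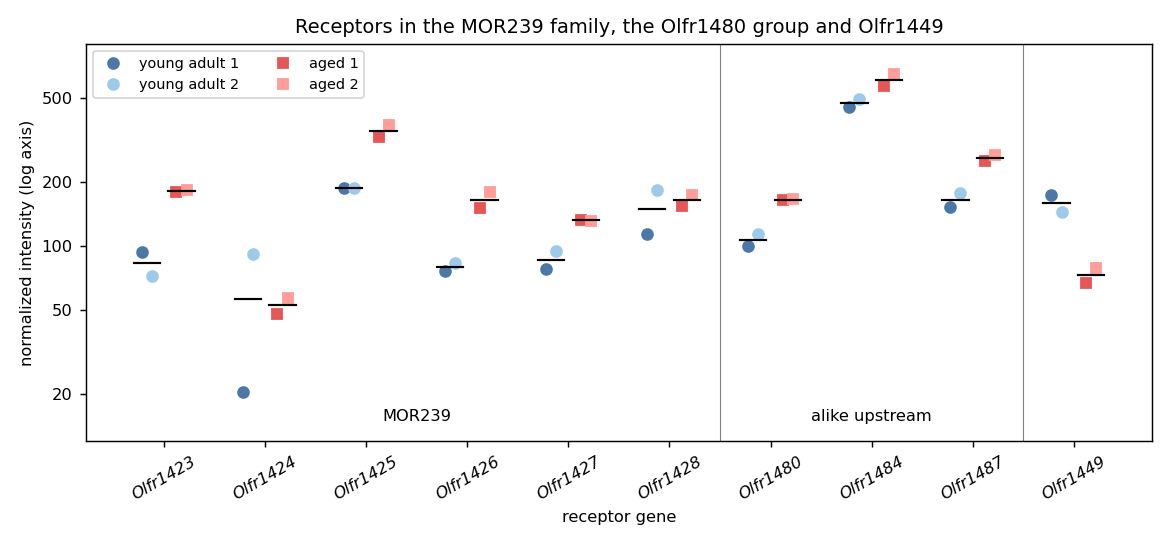
Normalized intensity (y axis, logarithmic) on each of the 4 arrays for the 6 MOR239 receptors, for Olfr1480, Olfr1484 and Olfr1487, whose upstream sequences are alike, and for Olfr1449. Circles are young adult arrays, squares are aged arrays and black bars are the means of the 2 arrays of an age; the aged arrays lie above the young adult arrays for Olfr1423, Olfr1425, Olfr1426, Olfr1427, Olfr1480, Olfr1484 and Olfr1487 and below them for Olfr1449.

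MOR202, with 29 measured receptors from *Olfr1442* to *Olfr1489*, was the largest family. Of its members 21 had a difference above 0 and 8 below, 3 were called higher and 1 lower, and the median was 0.19. The receptors *Olfr1480*, *Olfr1484* and *Olfr1487* stood close together near its end. *Olfr1480* was at 100 and 115 in young adult mice and at 166 and 167 in aged mice, a log2 difference of 0.63 (standard error 0.10, FDR = 0.226, limma). *Olfr1487* was at 153 and 179 in young adult mice and at 251 and 270 in aged mice, a difference of 0.65 (standard error 0.12, FDR = 0.245, limma). Both receptors rose by a similar amount, and neither had overlapping arrays. *Olfr1484* was at 455 and 495 in young adult and at 571 and 649 in aged mice. Its ages did not overlap, but the difference of 0.36 was not called (FDR = 0.36).

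The start windows of *Olfr1480* and *Olfr1487* are shown because both genes were called higher and the whole windows, coding bases included, are 91.7% identical in a pairwise alignment. They lie at chr19:13529425-13529724 and chr19:13618914-13619213 on the plus strand of GRCm38.p6, and in each the coding sequence begins at base 251. Capitals mark the bases that differ between them, a base opposite a gap included. The window of *Olfr1484* was 86.8% identical to that of *Olfr1487* and 85.9% to that of *Olfr1480*. Whether the array probes of such close relatives bind only their own transcript was not tested, so the levels of these genes may not be separate measurements.
Olfr1480: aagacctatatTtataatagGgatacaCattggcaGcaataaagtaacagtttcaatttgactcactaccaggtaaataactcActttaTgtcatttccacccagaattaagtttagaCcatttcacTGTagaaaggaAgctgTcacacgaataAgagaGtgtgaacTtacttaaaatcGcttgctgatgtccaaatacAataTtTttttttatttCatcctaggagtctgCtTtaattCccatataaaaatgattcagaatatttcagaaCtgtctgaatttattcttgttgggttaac
Olfr1487: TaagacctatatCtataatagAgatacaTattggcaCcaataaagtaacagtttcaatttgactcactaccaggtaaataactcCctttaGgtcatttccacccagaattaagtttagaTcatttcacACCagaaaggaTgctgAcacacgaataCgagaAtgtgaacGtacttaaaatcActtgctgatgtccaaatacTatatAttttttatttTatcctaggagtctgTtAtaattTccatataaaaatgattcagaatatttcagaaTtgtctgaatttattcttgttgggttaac

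Other MOR202 receptors passed the unadjusted P without passing the FDR. Among them were *Olfr1484*, given above, and, below background on every array, *Olfr1467* (0.51) and *Olfr1451*, which was lower (-1.14). *Olfr1463* was at 114 and 138 in young adult and at 211 and 197 in aged mice, a log2 difference of 0.70 (FDR = 0.251, limma). *Olfr1477* was at 168 and 167 in young adult and at 220 and 242 in aged mice, a difference of 0.46 (FDR = 0.257). *Olfr1459* was at 612 and 660 in young adult and at 818 and 828 in aged mice, a difference of 0.37 (FDR = 0.283). In each of these 3 receptors both aged arrays lay above both young adult arrays. Its fellow member *Olfr1462* was called higher (FDR = 0.206), but it was below background on every array, at 9.23 and 9.35 in young adult and 14.4 and 16.1 in aged mice, and no fold change is given for it. It was called in only 3 of 15 alternative tests.

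*Olfr1449* was the only receptor called lower. It was at 175 and 145 in young adult mice and at 67.1 and 78.7 in aged mice, with a log2 difference of -1.13 (standard error 0.16, FDR = 0.206, limma). Both young adult arrays and aged array 2 were well above background, and aged array 1 was not. Its measured neighbours *Olfr1448*, *Olfr1450* and *Olfr1451* had differences of -0.04, -0.17 and -1.14, none of them called. *Olfr1450* and *Olfr1451* were below background on all arrays, and *Olfr1448* on 1 aged array.

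The start window of *Olfr1449*, at chr19:12934490-12934789 on the plus strand of GRCm38.p6, is shown as that of the single called fall, with the start codon in capitals.
Olfr1449: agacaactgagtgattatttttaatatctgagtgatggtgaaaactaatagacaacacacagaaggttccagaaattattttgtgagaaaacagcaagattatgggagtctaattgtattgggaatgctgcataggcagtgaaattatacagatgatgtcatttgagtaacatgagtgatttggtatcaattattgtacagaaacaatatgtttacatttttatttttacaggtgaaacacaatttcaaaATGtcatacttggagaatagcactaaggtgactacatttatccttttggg

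The remaining families were small, and no member of them was called. All 4 MOR212 receptors, *Olfr1497*, *Olfr1500*, *Olfr1501* and *Olfr1504*, had a difference above 0, with a median of 0.50, but only *Olfr1497* was above background on all 4 arrays. *Olfr1501* was at 32.2 and 37.1 in young adult and at 54.9 and 50.4 in aged mice (log2 difference 0.61, FDR = 0.252, limma), without overlap, but it was above background only on young adult array 2 and aged array 2. The 3 MOR211 receptors also lay above 0. *Olfr1505* was at 61.1 and 85.8 in young adult and at 90.8 and 149 in aged mice, a difference of 0.68 with a standard error of 0.34 (FDR = 0.514). Leaving out aged array 1 gave 1.06, leaving out aged array 2 gave 0.32, and leaving out young adult array 1 gave 0.44.

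MOR266 differed from these in its signs, with 5 of 8 receptors below 0 and a median of -0.12. Only 1 of the 8, *Olfr1491*, was above background on all 4 arrays, and its difference was 0.20, so the signs of this family rest mostly on dim probes. *Olfr1495* was at 124 and 220 in young adult and at 93.7 and 100.0 in aged mice, a difference of -0.77 (standard error 0.33, FDR = 0.459, limma). The ages did not overlap, but the young adult arrays were far apart, and the difference was -1.19 without young adult array 1 and -0.36 without young adult array 2. *Olfr1418*, of the same family, had a difference of the other sign without a call, at 42.9 and 38.1 in young adult and at 52.8 and 64.0 in aged mice (0.52, FDR = 0.325). The medians of MOR214 (3 receptors) and MOR215 (2 receptors) were 0.01 and 0.05, and *Olfr1432* was the single receptor without a family name in the gene table. The plot by family shows MOR239 farthest to the right and MOR266 and *Olfr1496*, the single MOR127 receptor, to the left of 0.

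**Figure D4:**
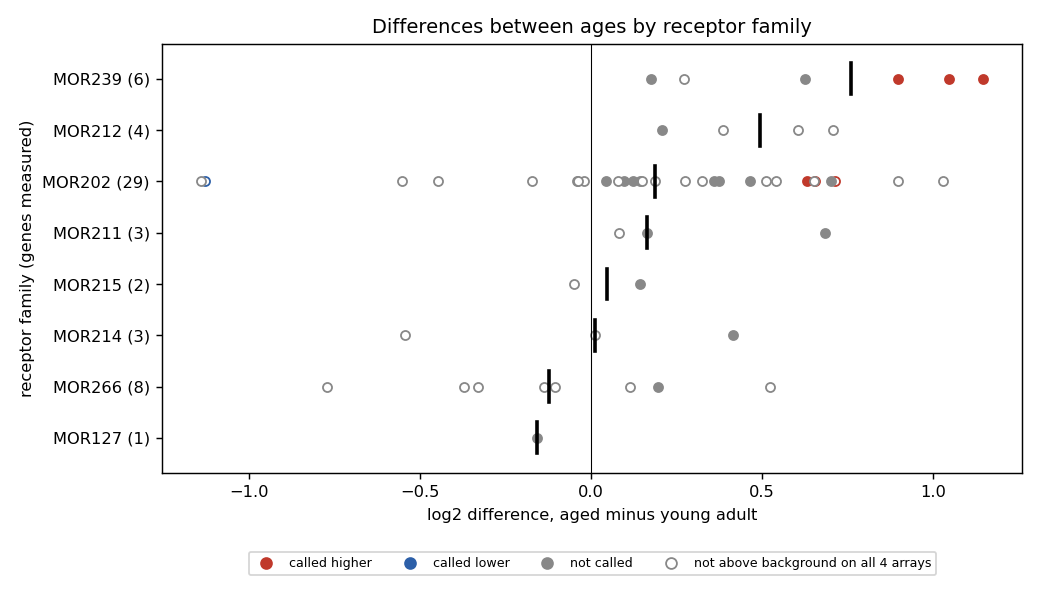
Log2 difference between aged and young adult mice (x axis) of each receptor, 1 point per gene, sorted into MOR families (y axis, with the number of genes measured) in order of the family median, drawn as a black bar. Red points were called higher, the blue point called lower, and open points were not above background on all 4 arrays; the median was 0.76 for MOR239, 0.19 for MOR202 and -0.12 for MOR266.

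None of the 5 receptors with the highest mean intensity was called. *Olfr1459* (0.37) and *Olfr1484* (0.36), described above, had the larger differences of the 5, with no overlap between ages. *Olfr1459* was called in 6 and *Olfr1484* in 3 of 16 alternative tests. *Olfr1499* was at 1493 and 1627 in young adult and at 1693 and 1797 in aged mice, a log2 difference of 0.16 (FDR = 0.561, limma). *Olfr1443* was at 823 and 830 in young adult and at 915 and 855 in aged mice, a difference of 0.10 (FDR = 0.672). *Olfr1466* was at 452 and 558 in young adult and at 530 and 564 in aged mice, with overlapping ages and a difference of 0.12 (FDR = 0.754). The brightness of a probe also depends on its own sequence, so this choice by intensity is not an order of transcript abundance.

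Some large differences rested on a single array. *Olfr1469* was at 60.1 and 69.3 on the young adult arrays, at 332 on aged array 1 and at 52.2 on aged array 2, and was above background only on young adult array 2 and aged array 1. *Olfr1472* was high on the same array, the only one where it was above background, at 108 against 31.5 on aged array 2 and 25 and 39.1 on the young adult arrays. Neither was called, with log2 differences of 1.03 (standard error 1.03) and 0.90 (standard error 0.73), while between aged array 2 and young adult array 2 they were -0.41 and -0.31.

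The windows of *Olfr1472* and of its relative *Olfr1475*, at chr19:13454466-13454765 and chr19:13480147-13480446 on the minus strand of GRCm38.p6, are shown because they were 89.2% identical while the genes differed in sign. *Olfr1475* had a difference of -0.55 and was below background on every array, so this contrast rests on dim signals. Capitals mark the bases that differ between them, a base opposite a gap included.
Olfr1472: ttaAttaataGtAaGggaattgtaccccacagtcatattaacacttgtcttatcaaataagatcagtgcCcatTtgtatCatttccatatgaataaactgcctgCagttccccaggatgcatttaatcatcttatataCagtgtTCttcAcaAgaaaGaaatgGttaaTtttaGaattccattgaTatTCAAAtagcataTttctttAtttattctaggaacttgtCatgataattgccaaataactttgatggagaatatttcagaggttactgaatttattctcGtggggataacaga
Olfr1475: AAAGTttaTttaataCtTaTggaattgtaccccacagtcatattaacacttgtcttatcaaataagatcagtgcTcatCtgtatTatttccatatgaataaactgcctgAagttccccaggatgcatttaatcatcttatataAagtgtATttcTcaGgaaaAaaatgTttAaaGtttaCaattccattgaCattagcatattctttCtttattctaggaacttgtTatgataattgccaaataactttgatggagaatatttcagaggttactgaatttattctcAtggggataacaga

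Start windows were found for 54 of the 57 receptors, and 47 of these had the start codon at base 251. Among the 1431 pairs of windows the median identity was 52.1%, and 9 pairs, made up of 15 genes, were at least 80% identical. The sign of the age difference was the same in 6 of these 9 pairs. The closest pair, *Olfr1471* and *Olfr1474* (95.7%), was below background, with differences of -0.04 and 0.08. The next, *Olfr1501* and *Olfr1504* (93.4%), had differences of 0.61 and 0.71, without a call in either gene. Between neighbours along the chromosome, 37 of 56 pairs shared their sign. Because 40 of the 57 receptors were above 0, most pairs would share a sign in any order. Neither this count nor that of the alike windows was tested.

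The letters TAATTA, of the kind bound by homeodomain factors such as LHX2, were present in 12 of the 54 windows (22.2%), against 18.4% of the windows of other Olfr genes and 5.31% of all gene windows. None of the called receptors with a window (*Olfr1423*, *Olfr1426*, *Olfr1449*, *Olfr1462*, *Olfr1480* and *Olfr1487*) held them. The letters CCCNNGGG, of the kind bound by EBF factors, were found in the window of *Olfr1443* only (1.85%), against 3.15% of other Olfr windows and 13.4% of all. Both motifs read the same on either strand and cannot overlap each other. Because most windows are placed by the start codon and not by a known transcription start, these counts describe the letters of the windows and nothing about binding.

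Genes of the neurons that carry the receptors were read beside them. Of all genes above background on all 4 arrays 2.11% were called higher and 3.07% lower. Among 20 markers of mature ORNs, 4 (20%) were called higher and none lower, with a median log2 difference of 0.25 and a summed level of 615200 to 623500 in young adult and 689600 to 696900 in aged mice. The 4 were *Kirrel2*, an adhesion molecule of ORN axons (1.11, FDR = 0.178, limma), *Cidea* (0.63), the phosphodiesterase gene *Pde4a* (0.45) and *Stoml3*, which encodes a stomatin-related protein of ORN cilia (0.43). Most of 21 genes of olfactory transduction and receptor trafficking are also on the mature ORN list, so these lists are not separate observations. Of the 21, the same *Pde4a* and *Stoml3* were called higher and *Rtp4* lower (-0.70), and the median was 0.18. *Rtp1*, which carries receptors to the cell surface, and the cyclase gene *Adcy3* had differences of 0.14 and 0.32 without a call. None of 19 receptor choice factors was called, with a median of 0.04, and their differences ran from -0.27 for *Dnmt3a* to 0.33 for *Ebf3* (FDR = 0.306). *Lhx2* and *Ldb1* had differences of 0.08 and 0.06, and *Ebf1*, *Ebf2* and *Ebf4* of 0.05, 0.21 and 0.07.

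Markers of other cells of the mucosa were also called. Of 13 markers of immature ORNs, *Dbn1* and *Dpysl3* were called lower, the median of the list was -0.28, and its summed level was 84950 to 86730 in young adult and 69850 to 70700 in aged mice. Of 11 markers of basal and progenitor cells, *Kit*, *Krt5*, *Mki67* and *Top2a* were called lower, the median was -0.30, and the summed level was 38250 to 38280 against 31240 to 31850. Without young adult array 1 this median was -0.52. The fall was not uniform, with 8 of the 11 below 0 and 3 above it. The 3 were *Lgr5* (0.37, FDR = 0.258, limma, ages without overlap), *Neurod1* (0.09) and *Trp63* (0.05), and *Sox2* was at -0.04. Of 10 respiratory epithelium markers *Ltf* and *Muc5ac* were called lower, the median was -0.18, and the summed level was 438600 to 448900 against 323700 to 334100. Most of that fall in level was in *Ltf*, at a mean of 260000 in young adult and 163100 in aged mice. All 10 differences were below 0, but those of *Foxj1*, *Tekt1* and *Cfap126* were only -0.03, -0.02 and -0.08. Without young adult array 1 the respiratory median was -0.29.

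Of 10 sustentacular cell markers only *Cyp1a2* was called, higher by 0.54, and the median was 0.02 (-0.0151 without young adult array 1 and 0.06 without young adult array 2). None of 6 genes listed as vomeronasal neuron markers was called, and whether they are particular to these neurons was not tested. *Vmn2r1*, on this list, was above background on 1 young adult array only. The median of the 6 was 0.12 (0.06 without young adult array 2). Their summed level was 21300 to 21950 in young adult and 19430 to 20270 in aged mice. Most of that sum was *Calr*, at means of 12270 and 11150, and *Trpc2*, also on the list, was not measured. All markers were above background on all 4 arrays but 1 of the respiratory and 1 of the vomeronasal markers. The part of these shifts in the differences of the receptors was not tested.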

How the data were processed

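The authors extracted spot values with Agilent Feature Extraction 11.0.1.1 and deposited, for 4 arrays, the median intensity of each spot, its local background intensity, a processed intensity and quality flags, without normalization between arrays. The mean spot signal was not used here because the deposited columns hold the median. Normexp with an offset of 0 (limma 3.58.1, R 4.3.3) removed the background, control and outlier spots were dropped, and repeated spots were averaged before quantile normalization and a log2 mean over the probes of each gene (only *Olfr1432* had 2 probes, with differences of -0.92 and -0.23). The authors' methods name limma, quantile normalization and R 3.2.1 but no background method. A normalized intensity is in arbitrary units, and a difference is aged minus young adult on the log2 scale.

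Ages were compared with limma (lmFit and eBayes, no covariates, 2 arrays per age) over 45616 genes. Accessions without versions named 32994 of 56605 probes (58.3%) through a RefSeq table of GRCm38.p6, and windows of 300 bases came from RefSeq's promoter table of that build. The array design uses another build, so no other coordinates were used. MOR families came from the gene table's synonyms. The value table of the series equalled the processed intensity on every array. Protein sequences were not used here, and protein families were not compared.

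Receptors named were those called, the 5 of highest mean level, the 5 largest rises and falls among detected receptors whose ages did not overlap (only 2 falls met this), and, of the other lists, called genes and *Omp*. Further receptors (relatives, neighbours, those near the threshold, array gaps) and list genes were added after their values were seen, as was the grouping by family. The members and lists were chosen with earlier results of these data known. Precision was limited by the number of arrays and, where probes were dim, by their closeness to background. The fit was tested on simulated data in which only a small share of all genes was changed. Most genes changed 2-fold had a low unadjusted P there but were not called. Calls by FDR depend on how many genes change, so this outcome does not carry over to the calls in these data. The alternatives were other background corrections, offsets and scalings, a filter on dim probes, the most intense probe, outlier spots kept, an intensity trend, the replicate block, the shared slide, each array left out and other thresholds.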

Additional observations from a re-analysis of the deposited data

How the results depend on the processing

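The 15 receptors named by the rule, and *Omp*, kept their direction under every alternative run, with the exception of *Olfr1466*. Its difference ranged from -0.0297 (without young adult replicate 1) to 0.271 when 1 array was left out. In the others the ages did not overlap, so leaving out 1 array or taking the shared slide alone could hardly turn the sign. The calls depended on the settings. With the replicate number as a replicate block, 0 of the 57 receptors, 0 other Olfr genes and 0 list genes were called in either direction, with 13 receptors at an unadjusted P below 0.05 in the higher and 4 in the lower direction. The first replicates shared a slide, but nothing says that the numbers pair the samples (r = -0.0779 between the deviations of the first replicates). Without any 1 of the 4 arrays, with the lone array of an age taken to vary like the other age, 0 receptors, other Olfr genes and list genes were called in either direction, and 10 to 15 receptors were higher and 1 to 5 lower at the unadjusted P. An FDR of 0.05 left 0 calls in each set.

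Receptors called higher numbered 11 with a normexp offset of 50, 10 with an offset of 16, 3 with the processed signal at the 75th percentile, 12 with the dim filter and 11 with the intensity trend. Receptors called lower numbered 2 without background correction, with 75th percentile scaling (6 higher, 2 lower) and with the trend. For other Olfr genes the counts higher and lower were 178 and 72 (offset 50), 170 and 70 (no correction), 185 and 71 (processed signal, quantile), 184 and 80 (trend) and 68 and 19 (level and fold limits), with 104 lower under the dim filter. For the lists (5 higher, 9 lower) they were 13 and 20, 11 and 18, 13 and 19, 21 and 24, and 2 and 5, then 16 and 21 (dim filter), 3 and 5 (processed signal, 75th percentile), 15 lower (offset 16) and 3 higher (75th percentile scaling). The dim filter kept 27 receptors, 22 of them above 0. The median of the receptors was 0.407 with the processed signal at the 75th percentile and 0.124 to 0.259 without 1 array. That of the other Olfr genes was 0.225, 0.0448 with offset 50, 0.0575 within the shared slide and 0.0159 to 0.147 without 1 array. The MOR239 median ran from 0.575 to 0.955. The causes were not tested. The slide as a random block could not be fitted by limma with 4 arrays.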
